A study of Mus musculus with 69 samples.

Results

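The genes described here are the mitochondrial ribosomal protein genes of mouse embryonic stem cells (ESCs), 77 of the 16263 genes in the RNA count table. They were taken by symbol alone, as every gene named Mrpl or Mrps followed by a digit, and the rule uses no measured value, although the family was picked for description with earlier results of these data known. All 77 passed edgeR's filter on low counts, which kept 14061 genes. RNA came from the J1 line, derived from the inner cell mass of 129S4/SvJae blastocysts, as WT cells and as the clones Mut18 and Mut43, with 2 biological replicates each. In both clones the genes for the histone variant H3.3, H3f3a and H3f3b, had been edited with CRISPR-Cas9 so that lysine 27 is replaced by arginine (H3.3K27R). The mutant genotype is therefore represented by 2 clones, and the 4 mutant libraries come from these 2 clones. All lines were grown on feeder cells and then passaged without feeders before harvest, and no drug or other treatment separates them.

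Mitochondria keep a small genome whose messages encode core subunits of the respiratory chain, and they translate these messages on ribosomes of their own. Every protein of that ribosome is made from a nuclear gene, translated in the cytosol and imported, so its many genes, spread over the nuclear genome, have to supply matched amounts of protein. Some of the proteins are relatives of bacterial ribosomal proteins, and others are found only in mitochondrial ribosomes. The names Mrpl and Mrps stand for the large subunit, which forms peptide bonds, and the small subunit, which reads the message. A few names are historical, since Mrps18a and Mrps30 sit in the large subunit and Mrps36 is now known as a component of the 2-oxoglutarate dehydrogenase complex.

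Each library held 14992756 to 15143998 counts, and the TMM scaling factors lay between 0.985 and 1.02. Of the edited genes, H3f3a was lower in the mutants by edgeR's quasi-likelihood test (log2 fold change −0.23, SE 0.043, adjusted p = 1.60e-04). H3f3b had a log2 fold change of 0.03 (SE 0.050, adjusted p = 0.637) over both clones together. By clone, the same test gave H3f3b −0.07 in Mut18 (adjusted p = 0.210) and 0.12 in Mut43 (adjusted p = 0.0162). Mut43 was above Mut18 by 0.19 (adjusted p = 0.0402). Gene counts do not show the edited codon. All 9 ESC markers were present in every library, and 7 of them were higher and 2 lower in the mutants. Their summed normalized counts were 46710 and 48952 in WT and 53222 to 56215 in the mutants. Markers of fibroblasts, the cell type used as feeders, were present too. Of 10 such markers 9 were tested, 8 were lower in the mutants and none was higher. Their summed normalized counts were 4579 and 3399 in WT and 2233 to 2890 in the mutants. In bulk RNA, fewer cells of a type and less RNA per cell cannot be told apart. Of the fibroblast markers 1 was at 0 in replicate 2 of each line. ESC markers were thus present in all libraries, with more fibroblast marker RNA in WT, most of all in WT replicate 1.

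The 77 genes lay on 17 chromosomes, with 10 on chromosome 11, 8 on chromosome 17, 7 on chromosome 6 and 6 on chromosome 7. Their raw counts ran from 124 to 3264 per library. Levels were compared between genes as normalized counts per kilobase of exon, where a normalized count is the count scaled for library size and TMM factor and the length is the union of a gene's annotated exons. The median member stood at 349 against 70.2 for all tested genes with a position, and 75 of the 77 were above that second value. Levels within the family were spread over a wide range, with 7.25-fold between the 10th and 90th percentiles. The median WT level was 337 for the 50 genes of the large subunit and 288 for the 26 of the small subunit.

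The 3 highest mean levels over the 6 libraries belonged to Mrpl18 (1440 per kilobase), whose bacterial relative binds 5S rRNA, Mrpl34 (1377 per kilobase), and Mrpl12 (1373 per kilobase), the stalk protein that recruits translation factors. Their order was not the same in the 2 genotypes. In WT Mrpl34 had a mean of 1444, Mrpl18 of 1395 and Mrpl12 of 1161 per kilobase, and both libraries of Mrpl12 lay below those of the other 2 genes, which overlapped. In the mutants Mrpl12 had a mean of 1479, Mrpl18 of 1462 and Mrpl34 of 1344 per kilobase, and all 4 libraries of Mrpl34 lay below those of the other 2 genes, which overlapped. The 3 lowest belonged to Mrps35 (81.4 per kilobase), Mrpl48 (59.9 per kilobase) and Mrpl33 (44.5 per kilobase). The annotated exons of these 3 low genes add up to 8.63, 8.15 and 7.33 kb, longer than their longest transcripts (4.61, 4.29 and 2.74 kb), which lowers a value per kilobase. The order at the low end therefore rests on the annotation. That at the high end does too, since these lengths differ unevenly between genes. Mrpl34 has 0.607 kb by both, Mrpl18 has 1.40 and 1.22 kb, and Mrpl12 has 1.53 and 1.32 kb. Mrps18b, at 900 per kilobase of exon, has 2.09 kb of exon and a longest transcript of 1.08 kb.

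**Figure D1:**
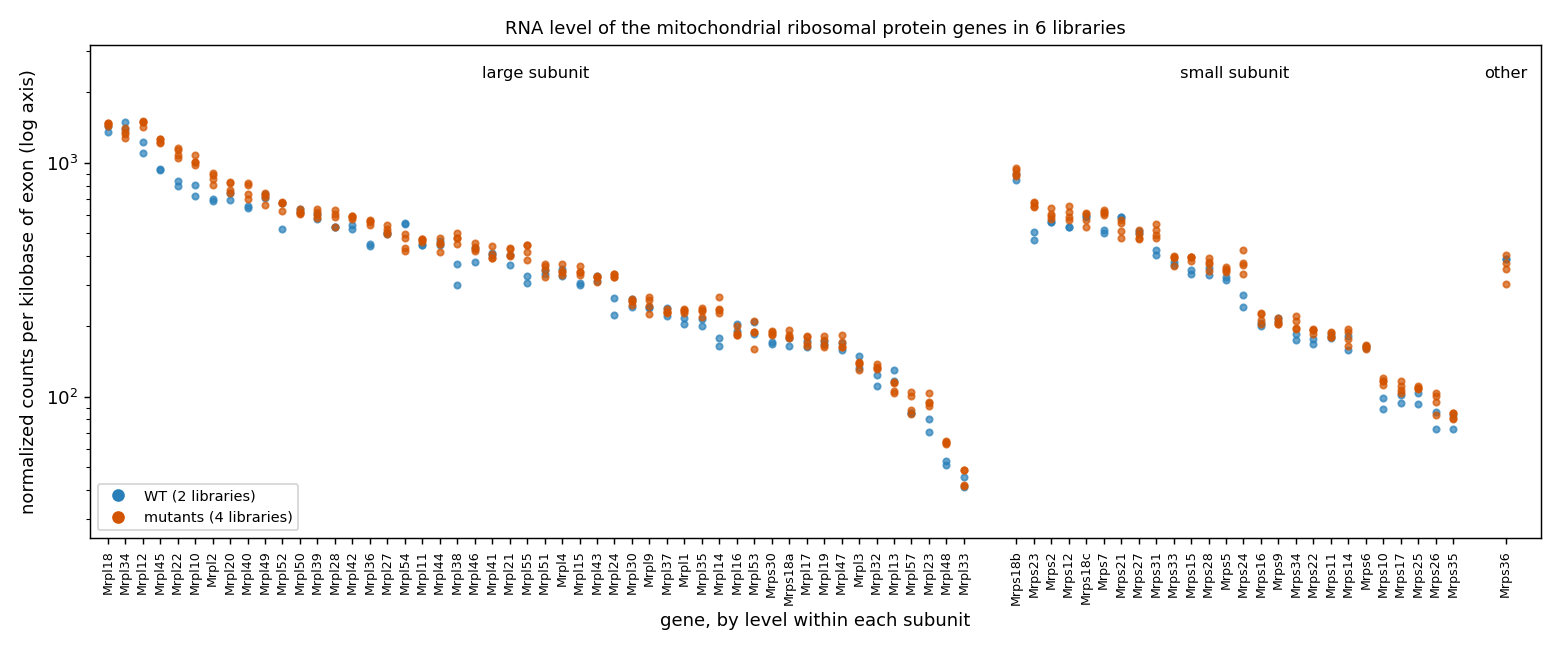
Normalized counts per kilobase of exon on a log axis for each of the 77 genes, sorted by level within the large subunit, the small subunit and Mrps36 (other), with 1 point per library. Mrpl18, Mrpl34 and Mrpl12 stand at the top and Mrpl33 and Mrpl48 at the bottom, and the 4 mutant points lie apart from the 2 WT points for genes such as Mrpl45, Mrpl22 and Mrpl38.

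The first comparison asked whether these genes differ between WT and H3.3K27R cells. In the mutants 32 of the 77 were higher, 2 were lower and 43 were not called, by edgeR's quasi-likelihood test at a Benjamini-Hochberg adjusted p under 0.05. Among all tested genes 23.5% were higher and 24.5% lower by the same rule. The median log2 fold change was 0.11 for the 77 genes and −0.00 for all tested genes. Changes were small in size, since no member passed 2-fold while 8.93% of all tested genes did, and the range ran from −0.28 to 0.54. In 35 members all 4 mutant libraries lay above both WT libraries, and in 3 all 4 lay below, against 29.4% and 30.4% of tested genes.

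**Figure D2:**
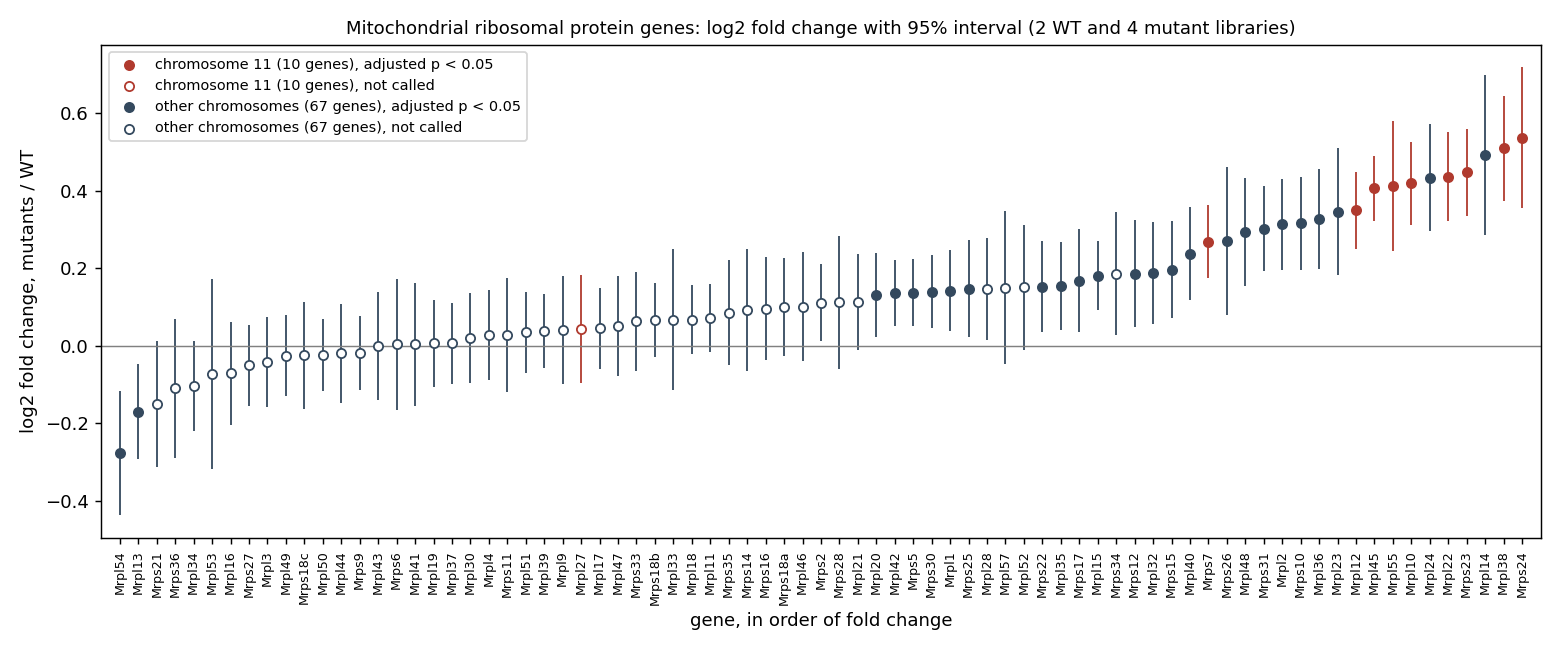
Log2 fold change between the 4 mutant and the 2 WT libraries for each of the 77 genes in rising order, with the 95% interval as a line and filled points for an adjusted p under 0.05. The 9 filled points of chromosome 11 cluster on the right between 0.27 and 0.54, Mrpl27 on the same chromosome sits near 0, and the 2 filled points below 0 are Mrpl54 and Mrpl13.

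The second comparison separated the 10 genes on chromosome 11 from the 67 on other chromosomes. On chromosome 11, 9 of the 10 were higher in the mutants and none was lower, with a median log2 fold change of 0.42. Chromosome 11 as a whole behaved alike, since 67% of its 1182 tested genes were higher, 7.11% were lower, and their median was 0.39. Of the 67 members elsewhere 23 were higher and 2 lower, with a median of 0.09, while 19.5% of other placed genes were higher, 26.1% lower, and their median was −0.03. The median over the chromosome 11 members exceeded that over the other members by 0.32 on the log2 scale. In 9 of the 10 members on chromosome 11 all mutant libraries lay above both WT libraries, against 70.6% of that chromosome's genes, and in none did all lie below, against 8.54%.

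The same difference was present within single libraries. Members on chromosome 11 supplied 14.99% and 15.4% of all counts of the family in the WT libraries, 18.3% and 18.1% in Mut18, and 18.0% and 17.7% in Mut43. Relative to the WT mean, the median chromosome 11 member stood above the median other member by 0.37 and 0.32 in Mut18 and by 0.31 and 0.30 in Mut43, with −0.03 and 0.03 in the WT libraries. All 4 mutant libraries were thus apart from both WT libraries. In the ATAC-seq peak lists, the share of peaks on chromosome 11 was also higher in the mutants, at 8.29% to 8.34%, than in WT, at 7.17% and 7.19%. DNA copy number was not analysed here, and its part in the result was not tested.

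**Figure D3:**
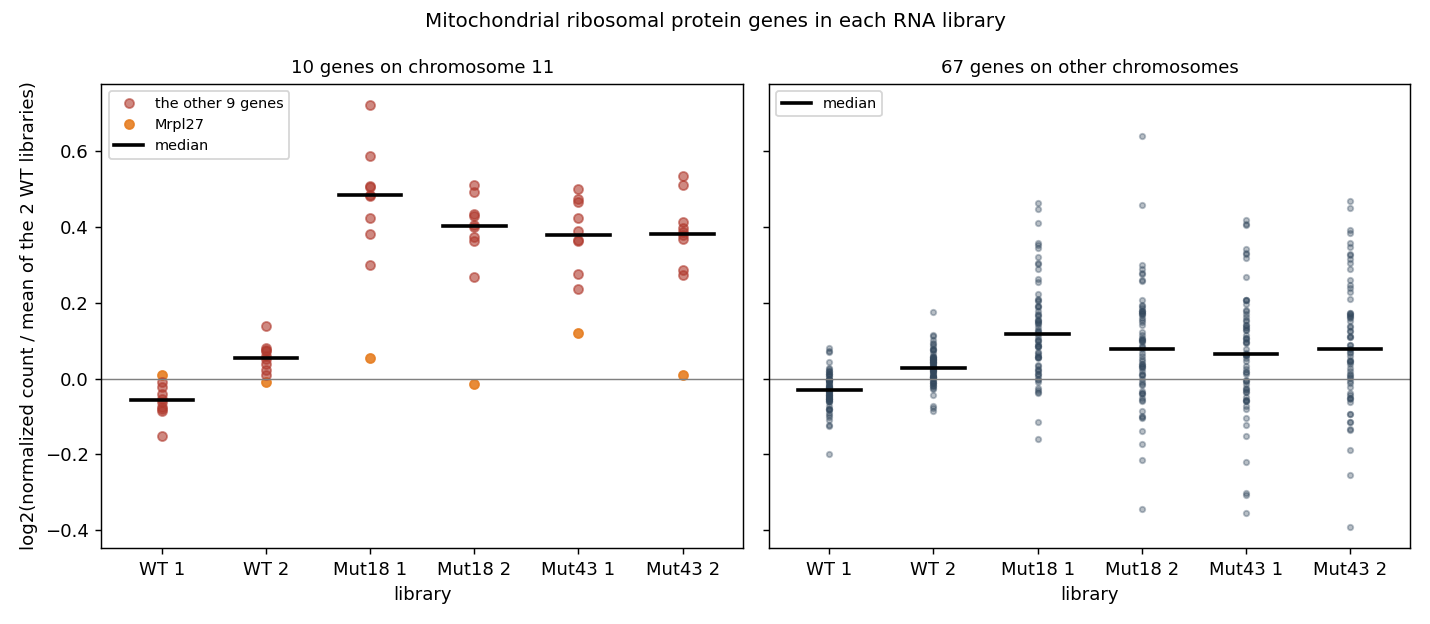
Normalized counts relative to the mean of the 2 WT libraries, on a log2 scale, for the 10 genes on chromosome 11 (left) and the 67 elsewhere (right), with 1 point per gene and a bar at the median of each library. On the left the mutant medians lie between 0.38 and 0.48 with Mrpl27 alone near 0, and on the right between 0.06 and 0.12 with points on both sides of 0.

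The small subunit had 3 genes on chromosome 11. Mrps24 (chr11:5703983-5715680), a relative of bacterial S3 at the messenger entry site, had 356 and 400 normalized counts in the WT libraries, 624 and 490 in those of Mut18, and 534 and 548 in those of Mut43. All mutant libraries were above both WT libraries, and its log2 fold change was the largest of the family (0.54, SE 0.087, adjusted p = 3.48e-05). Mrps23 (chr11:88204388-88211507), found only in mitochondrial ribosomes, gave 728 and 791 in WT and 1012 to 1061 in the mutants (0.45, SE 0.053, adjusted p = 7.44e-07). Mrps7 (chr11:115603925-115608036), a relative of bacterial S7 in the head of the subunit, gave 1039 and 1070 in WT and 1243 to 1298 in the mutants. Mrps7 had the smallest change of the 9 called genes (0.27, SE 0.046, adjusted p = 5.61e-05).

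The large subunit had 7 genes there. Mrpl38 (chr11:116131817-116138868), a mitochondrion-specific protein, had 767 and 938 normalized counts in the WT libraries, 1282 and 1215 in those of Mut18, and 1144 and 1216 in those of Mut43. The WT libraries of Mrpl38 differed from each other, yet both lay below every mutant library (0.51, SE 0.065, adjusted p = 1.73e-06). Mrpl45 (chr11:97315716-97329920), which lies at the tunnel exit and ties the ribosome to the inner membrane, had 2418 and 2453 in the WT libraries, 3268 and 3290 in those of Mut18, and 3188 and 3168 in those of Mut43. Replicates of each line lay close together, and its adjusted p was the lowest of the family (0.41, SE 0.040, adjusted p = 5.77e-08).

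Mrpl22 (chr11:58171661-58179565), which lines the peptide exit tunnel, gave 778 and 822 normalized counts in WT and 1032 to 1135 in the mutants (0.44, SE 0.055, adjusted p = 1.33e-06). Mrpl10 and Mrpl12 form the stalk together. Mrpl10 (chr11:97041560-97049213) gave 1236 and 1369 normalized counts in WT and 1679 to 1853 in the mutants (0.42, SE 0.051, adjusted p = 1.04e-06). Mrpl12 (chr11:120484613-120489065) gave 1682 and 1875 in WT and 2170 to 2317 in the mutants (0.35, SE 0.048, adjusted p = 4.78e-06). Mrpl55 (chr11:59202486-59206134), a relative of bacterial L31, gave 314 and 338 in WT and 395 to 459 in the mutants (0.41, SE 0.081, adjusted p = 2.67e-04). The 9 called genes lay along the whole chromosome. Mrpl38 and Mrps7 were 104 and 414 kb from the edited gene H3f3b, and Mrps24 was 110306 kb away.

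Mrpl27 (chr11:94653767-94660089), whose bacterial relative reaches toward the peptidyl transferase centre, was the exception. It had 496 and 490 normalized counts in the WT libraries, 512 and 489 in those of Mut18, and 536 and 496 in those of Mut43. The groups overlapped, and the log2 fold change was 0.04 (SE 0.067, 95% interval −0.10 to 0.18, adjusted p = 0.618), with an upper bound below the median of its chromosome. Of 17 other tested genes within 500 kb of it, a stretch chosen after this value was seen, 8 were higher, 2 were lower and 7 were not called. The median of these neighbours was 0.26. Of all tested genes on chromosome 11, 67% were higher and 7.11% lower, with a median of 0.39. Its nearest neighbours rose, as Lrrc59 had a log2 fold change of 0.47 (SE 0.038), Xylt2 of 0.70 (SE 0.063) and Eme1 of 0.32 (SE 0.050). Eme1, for a subunit of a DNA junction nuclease, is read from the opposite strand, and its exons overlap those of Mrpl27 by 75 bp. Whether the counting used strand is not given in the sources used here, so reads of overlapping genes on opposite strands cannot be told apart.

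A sequence upstream of the RefSeq start of 4 members with large changes is shown, since these genes rose together. All 4 carried an open-chromatin peak within 500 bp of an annotated GENCODE start in every ATAC-seq library, which need not be the RefSeq start. They were taken in order of fold change among called members with an entry in the RefSeq promoter table of GRCm38.p6 and at least 100 bases free of annotated exons. Mrpl38 and Mrpl14 ranked among them but are named only. Positions are counted from the RefSeq start. The stretches end 1 base before that start for Mrps24 and Mrps23, 4 for Mrpl22 and 39 for Mrpl24. For Mrps24 that start lies inside the gene's GENCODE span given above, which runs further upstream, so its stretch lies upstream of the RefSeq start and within that span. Capitals mark motif letters found in the stretch.
Mrps24, chr11:5707702-5707851, minus strand: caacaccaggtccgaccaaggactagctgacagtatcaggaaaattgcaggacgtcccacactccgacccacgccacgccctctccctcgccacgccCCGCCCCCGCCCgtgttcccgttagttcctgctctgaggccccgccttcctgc
Mrps23, chr11:88204238-88204387, plus strand: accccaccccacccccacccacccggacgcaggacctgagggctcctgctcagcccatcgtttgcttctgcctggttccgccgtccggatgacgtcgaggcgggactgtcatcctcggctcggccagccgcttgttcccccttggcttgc
Mrpl22, chr11:58171511-58171660, plus strand: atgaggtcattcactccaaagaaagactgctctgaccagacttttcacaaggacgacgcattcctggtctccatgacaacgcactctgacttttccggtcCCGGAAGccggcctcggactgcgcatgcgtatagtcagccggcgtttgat
Mrpl24, chr3:87919356-87919505, plus strand: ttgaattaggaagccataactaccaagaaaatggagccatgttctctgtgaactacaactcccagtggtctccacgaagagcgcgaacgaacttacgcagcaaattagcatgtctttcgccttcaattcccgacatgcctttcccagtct
The stretch of Mrps24 holds GGGCGG letters on the other strand at 2 places, 53 and 47 bases before the start, and that of Mrpl22 holds CCGGAAG 53 bases before it. Those of Mrps23 and Mrpl24 hold none of the 6 motifs searched, and for Mrpl24 the bases nearest the start are not shown.

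Over whole promoter windows, from 250 bases before to 50 after each RefSeq start, 68 of the 77 genes had an entry, in 74 windows. Letters were searched on both strands, and all 21263 protein-coding windows served as the background. The motif of NRF1, a transcription factor known for nuclear genes of mitochondria, searched as its consensus with 1 free base, was in 17.6% of member windows and 6.38% of all windows. The ETS motif of GABPA (NRF2), CCGGAAG, was in 33.8% against 11.6%. The YY1 motif AAGATGGC was in 16.2% against 3.05%. At least 1 of these 3 was in 42 of the 74 member windows (56.8%) and in 18.9% of all windows. The other motifs searched were closer to the background, with the E-box CACGTG in 9.46% against 7.84%, the SP/KLF letters GGGCGG in 52.7% against 46.2%, and CCAAT in 40.5% against 38.2%. Member windows were also richer in CpG, with a median of 21.5 CpG against 13 in the other windows and a GC content of 58.5% against 56.3%. These matches describe letters only, and binding was not analysed here.

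The next comparison read chromatin accessibility at the starts of these genes from the ATAC-seq peak calls. A peak lay within 500 bp of an annotated start in all 6 ATAC-seq libraries for 76 of the 77 genes, against 80.7% of 16096 placed genes. Those placed genes include ones that failed the filter on low counts, which all 77 members passed. Mrpl53, of the large subunit, was the exception, with a peak in both WT libraries and in 1 library of each clone. The median fold enrichment of the members' peaks, as the authors' peak caller gave it, was 8.40 and 9.23 in the WT libraries, 8.60 and 8.72 in those of Mut18, and 9.15 and 9.22 in those of Mut43, and the groups overlapped. At Mrpl27 it was 9.15 and 10.6 in WT and 9.45 to 10.7 in the mutants, the highest of the chromosome 11 members in each library. The peak is shared with Eme1, which starts 197 bp away and rose, so its value belongs to both genes. At Mrps24 it was 5.00 and 5.24 in WT and 4.65 to 5.20 in the mutants. Peak lists give no read numbers, so these values were not tested.

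Of the genes outside chromosome 11, Mrpl14 and Mrpl24 rose the most. Mrpl14 (chr17:45686322-45698495), at the subunit interface, had 156 and 170 normalized counts in the WT libraries, 222 and 254 in those of Mut18, and 216 and 225 in those of Mut43. It had the largest log2 fold change of the 67 genes (0.49, SE 0.099, adjusted p = 3.50e-04). Mrpl24 (chr3:87919506-87923672), whose bacterial relative starts the folding of the large rRNA, gave 506 and 595 in WT and 732 to 756 in the mutants (0.43, SE 0.066, adjusted p = 1.70e-05). In both genes every mutant library was above both WT libraries.

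Mrpl23 (chr7:142532686-142540747), at the exit tunnel, gave 347 and 392 normalized counts in WT and 447 to 509 in the mutants (0.35, SE 0.079, adjusted p = 0.00107). Mrpl36 (chr13:73328513-73332178), a small bacterial-type protein, gave 521 and 514 in WT and 628 to 661 in the mutants (0.33, SE 0.062, adjusted p = 1.75e-04). Mrps10 (chr17:47368887-47381417), in the head of the small subunit, gave 714 and 798 in WT and 904 to 968 in the mutants (0.32, SE 0.057, adjusted p = 1.18e-04). The groups did not overlap in any of these 3 genes. The other 18 called rises outside chromosome 11 were between 0.13 and 0.31.

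Only Mrpl54 and Mrpl13 were called lower. Mrpl54 (chr10:81264713-81266934), a mitochondrion-specific protein, had 454 and 457 normalized counts in the WT libraries, 408 and 392 in those of Mut18, and 356 and 347 in those of Mut43. Both clones were below WT, and the log2 fold change was −0.28 (SE 0.077, adjusted p = 0.00553), although Mut18 alone did not pass the threshold (−0.19, adjusted p = 0.0687). Mrpl13 (chr15:55534094-55557748), a relative of bacterial L13, had 928 and 1032 in the WT libraries, 905 and 914 in those of Mut18, and 842 and 822 in those of Mut43 (−0.17, SE 0.059, adjusted p = 0.0220). For Mrpl13 the gap between the lower WT library and the higher Mut18 library was smaller than the spread of the WT pair. Mrpl13 lost its call in DESeq2, with the Mut18 libraries alone, and without WT replicate 2 or either Mut43 replicate.

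The number of rises outside chromosome 11 depended on WT replicate 1. WT replicate 2 was above it in 61 of the 77 members, against 50.4% of all tested genes. Without WT replicate 1, 13 of the 67 members were called higher (19.4%, against 14.2% of other placed genes), with a median log2 fold change of 0.05. Without WT replicate 2 the number was 23 (34.3%, against 15.3%). DESeq2, run without the filter on low counts, called 15 higher (22.4%). Its background of 13.2% is over 14751 other placed genes, low-count genes included, so it is not the same set as above. On chromosome 11 the count stayed at 9 in each of these. WT replicate 1 was also the library with the most fibroblast marker RNA, at 4579 against 3399 in WT replicate 2 and 2233 to 2890 in the mutants, and the part of that in the result was not tested.

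By role, in the large subunit 20 of 50 genes were higher and 2 lower, with a median log2 fold change of 0.10, and in the small subunit 12 of 26 were higher and none lower, with a median of 0.12. Of 47 genes with bacterial relatives 21 were higher and 1 lower (median 0.11), and of 29 mitochondrion-specific genes 11 were higher and 1 lower (median 0.10). These counts include the chromosome 11 members and stand beside 23.5% higher and 24.5% lower among all tested genes. Outside chromosome 11, 14 of 43 large-subunit genes (32.6%) and 9 of 23 small-subunit genes (39.1%) were higher, against 19.5% of other placed genes, with medians of 0.07 and 0.11. There 15 of 40 genes with bacterial relatives and 8 of 26 mitochondrion-specific genes were higher. These are counts side by side, and the differences between classes were not tested. The 3 paralogs of bacterial S18 were not called. Mrps18a, in the large subunit, had a log2 fold change of 0.10 (SE 0.061, adjusted p = 0.187). Mrps18b had 0.07 (SE 0.045, adjusted p = 0.235), and the counts above place it with the mitochondrion-specific genes although it is such a paralog. Mrps18c, the closest counterpart of the bacterial protein, had −0.02 (SE 0.066, adjusted p = 0.786), and its sign changed with the libraries used. Mrpl18, Mrpl34, Mrpl33 and Mrps35 of the highest and lowest levels were not called either, and Mrpl48 rose by 0.29 (SE 0.067, adjusted p = 0.00108).

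The third comparison took each clone on its own, in a fit with 3 groups. Both clones were compared with the same 2 WT libraries, so the counts are not independent. In Mut18 27 members were higher and none lower, against 20.3% and 21% of tested genes. In Mut43 28 were higher and 3 lower, against 22.9% and 23.9%, and the 3 were Mrpl54, Mrpl13 and Mrps21, a small-subunit protein. On chromosome 11 9 of 10 were higher in each clone, with medians of 0.45 in Mut18 and 0.38 in Mut43. Among all tested genes of that chromosome 64.6% were higher in Mut18 and 65.3% in Mut43, with a median of 0.38 in each. Mrpl27 had 0.02 in Mut18 (adjusted p = 0.863) and 0.07 in Mut43 (adjusted p = 0.514). On other chromosomes the member medians were 0.10 in Mut18 and 0.07 in Mut43, against −0.03 in each clone for all tested placed genes there.

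Between the clones 0 of the 77 genes were called, against 0.327% of tested genes. At an unadjusted p under 0.05 there were 7 of the 77, against 1198 of the 14061 tested genes. DESeq2 called 0 members as well. The member log2 differences of Mut43 from Mut18 ran from −0.20 to 0.20. The lowest p was that of Mrps31 (0.14, unadjusted p = 0.0125, adjusted p = 0.389), a small-subunit protein. Mrpl54 differed by −0.19 (adjusted p = 0.546), so its lower values in Mut43 were not separated from those in Mut18.

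Many members start beside another gene. In 33 of the 77 a protein-coding gene started on the opposite strand within 1000 bp, against 15% of placed genes. Mrpl46 and Mrps11, both members, started 412 bp apart and neither was called (log2 fold changes 0.10 and 0.03). Other partners serve mitochondria too, such as Ndufs6, for a subunit of complex I, 29 bp from Mrpl36, and Sars2, for the mitochondrial seryl-tRNA synthetase, 172 bp from Mrps12. Mrpl36 rose by 0.33 while Ndufs6 had −0.04 (adjusted p = 0.622), and Mrps12 rose by 0.19 while Sars2 had 0.13 (adjusted p = 0.144).

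Of 28 tested partners outside the family 5 were higher and 6 lower, with a median of 0.01. These counts stand beside 23.5% higher and 24.5% lower among all tested genes. In 10 of these 28 pairs the member was higher, and in 1 of them, Mrps7 with Gga3 on chromosome 11, both genes were. Gga3, for a sorting adaptor of the Golgi, had a log2 fold change of 0.50 (adjusted p = 6.32e-08). In other pairs the genes parted, since Mrpl40 rose by 0.24 (adjusted p = 0.00194) while Hira, the histone chaperone that deposits H3.3, 175 bp away, fell by 0.25 (adjusted p = 2.09e-04). Mrpl14 rose while Tmem63b, for an ion channel, 583 bp away, fell by 0.25 (adjusted p = 6.65e-04). Exons of 32 members overlap those of another gene. In this set 11 were higher (34.4%) and 1 lower (3.1%), beside the same 23.5% and 24.5% of all tested genes. Among the genes named above, Mrps24 shares 226 bp of exon with Urgcp on the same strand. Mrpl33, Mrps18c and Mrpl53 also overlap a same-strand gene, by 261, 250 and 695 bp. On the opposite strand, Mrps7, Mrps18b, Mrps30, Mrpl10, Mrpl12, Mrpl13, Mrpl14, Mrpl18, Mrpl24, Mrpl27, Mrpl36, Mrpl48 and Mrpl53 overlap another gene. Mrpl46 and Mrps11 overlap each other by 173 bp. Mrpl18 shares 141 bp with Tcp1, which had a mean of 11808 normalized counts in WT. With the 5 and 40 members free of such overlap, the excess on chromosome 11 was 0.33 on the log2 scale.

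Other genes of mitochondrial translation were read from lists chosen without regard to their position, although with earlier results of these data known. The counts stand beside 23.5% higher and 24.5% lower among all tested genes, and 19.5% and 26.1% outside chromosome 11. Of 6 mitochondrial ribosomal proteins that carry other names 4 were higher and none lower, with a median of 0.24. Ict1, a ribosome-rescue hydrolase built into the large subunit, rose by 0.38 on chromosome 11 (SE 0.067, adjusted p = 9.13e-05), and Dap3, a GTP-binding protein of the small subunit, by 0.26 (SE 0.047, adjusted p = 9.94e-05). Of 17 translation factors 8 were higher and 2 lower (median 0.11), among them the elongation factor Tufm with 0.32 (SE 0.045, adjusted p = 5.52e-06) and the initiation factor Mtif2 on chromosome 11 with 0.29 (SE 0.047, adjusted p = 2.85e-05). Of 22 assembly factors 6 were higher and 2 lower (median 0.06), and outside chromosome 11 it was 4 of 20, or 20% higher, a share near the 19.5% of other placed genes. The 2 called assembly factors of lowest p were both on chromosome 11, the rRNA methyltransferase Mrm1 with 0.74 (SE 0.095, adjusted p = 1.97e-06) and the GTPase Eral1 with 0.45 (SE 0.064, adjusted p = 6.07e-06).

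Of 22 genes for the charging of mitochondrial tRNAs 7 were higher and 1 lower (median 0.05). All 22 lie outside chromosome 11, where 19.5% of placed genes were higher and 26.1% lower. The list holds aminoacyl-tRNA synthetases and, with Qrsl1, Gatb and Gatc, subunits of an amidotransferase, none of which was called. Kars, which charges lysine tRNAs in both compartments, had a log2 fold change of 0.29 (SE 0.037, adjusted p = 1.64e-06). Wars2, the mitochondrial tryptophanyl enzyme, was the 1 that fell (−0.77, SE 0.11, adjusted p = 5.73e-06), a change larger than that of any ribosomal protein gene described above. Of 15 activators of nuclear genes for mitochondria and mitochondrial DNA maintenance genes 7 were higher and none lower (median 0.11), beside 23.5% and 24.5% of all tested genes, and outside chromosome 11 5 of 13 were higher, beside 19.5%. Tefm, a transcription elongation factor on chromosome 11, rose by 0.44 (SE 0.077, adjusted p = 7.99e-05), and Tfam, which packages mitochondrial DNA, by 0.20 (SE 0.042, adjusted p = 5.35e-04).

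The cytosolic ribosome offers a comparison with another ribosome built from scattered genes. Counts here stand beside 23.5% higher and 24.5% lower among all tested genes, 67% and 7.11% on chromosome 11, and 19.5% and 26.1% elsewhere. Of the 82 tested protein genes of the cytosolic ribosome 12 were higher and 3 lower, with a median of 0.00. All 6 on chromosome 11 were higher, with a median of 0.40, close to the 0.42 of the mitochondrial family there. Of the 76 others 6 were higher and 3 lower, with a median of −0.01. Of 78 nuclear genes for respiratory chain and ATP synthase subunits 22 were higher and 3 lower (median 0.07), and the 4 on chromosome 11 were all higher with a median of 0.62. Outside chromosome 11, 34.3% of mitochondrial ribosomal protein genes, 7.89% of cytosolic ones and 24.3% of the 74 respiratory chain genes were higher, beside 19.5% of placed genes there. These shares were not tested against each other.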

How the data were processed

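The mRNA-seq table and 6 ATAC-seq peak lists, with 2 libraries each of WT, Mut18 and Mut43, were used. ChIP-seq samples were not analysed here. The authors deposited raw read counts per gene, as whole numbers. Reads were paired-end, with mm10 joined to the Drosophila genome as reference. The submitters' processing notes name STAR, Bowtie2 2.3.4.2, SAMtools, DESeq2 and deepTools 3.3.0, and the counting program, annotation and strandedness are not given in the sources used here. The authors deposited ATAC-seq peaks called per library, each with a fold enrichment over background and a −log10 p and −log10 q value. These were used as given.

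Samples were grouped by their titles. Counts were filtered (filterByExpr, minimum count 10, minimum total 15), scaled by TMM and tested with edgeR 4.0.16 in R 4.3.3 by quasi-likelihood F-tests, WT (n = 2) against mutants (n = 4), over all 14061 genes with Benjamini-Hochberg adjustment. Clones were tested in a fit with 3 groups. Intervals are at 95%. The procedure was tested on simulated data. Replicates of a line differed by more than counting noise (chi-square per gene 1.81 to 3.06), and p-values measure the spread between these libraries. Symbols were placed with GENCODE vM21 on GRCm38, 15618 directly, 478 by an older symbol and 167 not at all, and members all directly. Overlaps used Python 3.11.15, and promoter windows are from RefSeq.

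Members and lists were chosen with earlier results of these data known. Named members are all 10 on chromosome 11, the 5 largest rises and falls elsewhere, the 3 highest and lowest levels and the Mrps18 paralogs, and in other lists the 2 called genes of lowest p. Mrps21, Mrps31, Mrpl53, the opposite-strand pairs and the neighbours of Mrpl27 were named after their values were seen. Alternatives were other normalizations, DESeq2 1.42.0, other filters, thresholds, windows and lengths, a replicate term, each clone alone and each library left out.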

Additional observations from a re-analysis of the deposited data

How the results depend on the processing

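Of 592 recomputed fold changes of 37 named genes, 579 kept their direction and their side of the threshold, 7 lost their call and 2 gained one, and 4 changed sign. The reversals were H3f3b (−0.060) and Mrps18c (0.052) with the Mut18 libraries alone and, leaving out 1 library at a time, Mrps18c (−0.051 to 0.021, above 0 without Mut43 replicate 1) and Mrps35 (−0.012 to 0.20, below 0 without WT replicate 1). The count of 9 higher genes on chromosome 11 was obtained under every alternative, and 0 genes past 2-fold under each one tried. DESeq2 gave 1 lower member and 15 higher members outside chromosome 11. The Mut18 libraries alone gave 0 lower members and 15 higher ones outside chromosome 11 (22.4%, against 15.7% of other placed genes). The excess of chromosome 11 members over the others was 0.36 there. An adjusted p under 0.01 left 22 changed members, 21 higher and 1 lower, with 12 of the higher ones outside chromosome 11, as a stricter threshold must call fewer. With the longest transcript as gene length the spread of levels was 6.32-fold. Leaving out 1 RNA library at a time gave 24 to 34 changed members, 22 to 32 higher, 1 to 2 lower, 13 to 23 higher outside chromosome 11, 18 to 30 called genes in the other mitochondrial translation lists (30 with all libraries), and an excess of 0.32 to 0.36. Outside chromosome 11 the higher members in these fits were 19.4% to 34.3%, against 14.2% to 19.3% of other placed genes. The low ends of 13 and 18 both came without WT replicate 1. The cause of that, as of the changes with DESeq2 and with Mut18 alone, was not tested. Replicate numbers did not pair the libraries (correlations of same-numbered deviations −0.01, 0.03 and −0.00), and a fit with the replicate number as a block called 32 members, all of them also called without the block, with 9 on chromosome 11. Other scalings moved the median of all genes to between −0.02 and 0.02. With 2 WT libraries and 2 clones, the precision is set by few cultures.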
